A study of Homo sapiens with 60 samples.

Results

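The mitochondrial ribosomal protein genes were taken as every protein-coding gene whose symbol is MRPL or MRPS followed by a number, with pseudogenes left out. This rule, which uses names and no measured value, gave 78 of the 60675 gene IDs in the deposited count table, 49 named MRPL and 29 named MRPS. All 78 passed the filter on low counts, at least 0.5 CPM (counts scaled to the library total) in at least 3 libraries, which 16022 gene IDs passed in all. The lowest count of any of the 78 genes in any library was 30.

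Mitochondria hold a ribosome of their own, the mitoribosome, which translates the 13 mRNAs of the mitochondrial genome into subunits of the respiratory chain and of ATP synthase. Its rRNAs, MT-RNR1 and MT-RNR2, are transcribed inside the organelle, whereas its proteins are encoded in the nucleus, made in the cytosol and imported. MRPL proteins build the large subunit, which forms the peptide bond, and MRPS proteins the small subunit, which reads the mRNA. Many have a counterpart in bacterial ribosomes and the others are found only in mitochondria. Some names mislead: MRPS18A and MRPS30 sit in the large subunit, and MRPS36, now also called KGD4, is known as a subunit of the 2-oxoglutarate dehydrogenase complex.

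mRNA was sequenced in 60 libraries from HT29, a human colorectal adenocarcinoma cell line, after 24 h with ethanol extracts of herbal medicines or with vehicle. Citri Unshius Pericarpium, Cimicifugae Rhizoma and Aconiti Lateralis Radix Preparata were used at 500, 100 and 20 µg/mL, here called high, medium and low dose, with 3 libraries at each dose. Zizyphi Fructus and the mixed-herb formula Yijung-tang were used at the same doses with 2 libraries each, and the formula Banhasasim-tang with 1. Coptidis Rhizoma was used at 320, 64 and 12.8 µg/mL with 2 libraries each and Bupleuri Radix at 310, 62 and 12.4 µg/mL with 3 libraries each. The design text gives an IC20 as the top concentration of extracts whose IC20 lay below 500 µg/mL. The 3 vehicle libraries had 0.1% DMSO per the sample labels and 2% per the design text. Library sets were read here from the first part of the sample codes, which is D1 for vehicle alone and 11 for Coptidis and Zizyphi. Set 12 holds Citri and Cimicifugae, set 13 Bupleuri and Aconiti, and set 14 Yijung-tang and Banhasasim-tang. The titles name all 60 samples BatchD, and the labels do not say what the codes stand for. Extract against vehicle and set against set cannot be told apart here, but the doses of an extract lie within a set. Nothing in the labels says that libraries of a group came from separate cultures, so the p-values below measure the spread between libraries, which may be technical.

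Library totals ran from 18.1 M to 36.7 M counts with a median of 24.1 M. All 10 colon epithelium markers, among them KRT8, had a median of at least 1 CPM, and they summed to 5230 to 13440 CPM per library (9078 and 9121 CPM in the high-dose Coptidis libraries). The hepatocyte, leukocyte, fibroblast and endothelial marker lists, 3 genes each, summed to at most 4.76 CPM in any library. Medium-dose Zizyphi replicate 3 stood apart: mitochondrial mRNAs took 38.8% of its counts, and it held the lowest level of all 60 libraries for 38 of the 78 genes and the highest for 15. Vehicle replicate 1 held the highest level for 40 of the 78 genes. Both libraries enter the results below as stated beside them.

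In vehicle the 78 genes ranged from 9.18 to 169 CPM with a median of 50.2 CPM. Per kilobase of principal transcript (GENCODE 29 lengths, which depend on the annotated ends) they ranged from 7.52 to 152 CPM per kb, with a median of 31.5 for MRPL and 34.2 for MRPS genes. MRPL13, a large subunit protein with a bacterial counterpart, was the highest per length at 182, 159.5 and 153 CPM in the 3 vehicle libraries, or 152 CPM per kb. MRPL12, of the stalk that recruits translation factors, followed with 110 CPM per kb, and MRPS24 had 107 CPM per kb. The lowest were MRPS14 at 9.98, MRPS11 at 9.39 and MRPS23 at 7.52 CPM per kb. Vehicle replicate 1 was the highest of the 3 vehicle libraries for each of these 6 genes.

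With Coptidis Rhizoma, which is the dried rhizome of Coptis plants, mRNAs of the mitoribosome proteins were lower at the high than at the low dose for a large share of the genes. By edgeR's quasi-likelihood test (Benjamini-Hochberg adjusted p under 0.05 over all tested genes), 35 of 78 genes fell, or 44.9%, beside 28.4% of all tested genes, and 6 rose, or 7.69%, beside 27.8% of all tested genes. The median log2 difference of the 78 genes was -0.19, beside -0.02 over all tested genes. With edgeR scaled by library totals alone, which moves the median of all genes by 0.13, 6 rose and 17 fell, and the medians were -0.06 for the 78 genes and 0.11 for all genes. The summed level of the 78 genes was 3703 and 3816 CPM in the high-dose libraries, 4153 and 4102 at the medium dose and 4412 and 4216 at the low dose. These CPM levels use library totals adjusted by a factor per library (TMM), and on that scale the high-dose libraries had the lowest sums of the 60. As a plain share of counts, the 78 genes took 0.3807% and 0.3896% at the high dose. They took 0.4152% and 0.4096% at the medium dose and 0.4103% and 0.3974% at the low dose. By that share Zizyphi medium replicate 3 was the lowest of the 60 libraries, at 0.2356%. In RNA from whole cultures, fewer cells of a kind and less RNA per cell cannot be told apart. In the 50 libraries of other extracts, with Zizyphi medium replicate 3 left out, the sum ran from 4010 to 4629 CPM with a median of 4251.

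**Figure D1:**
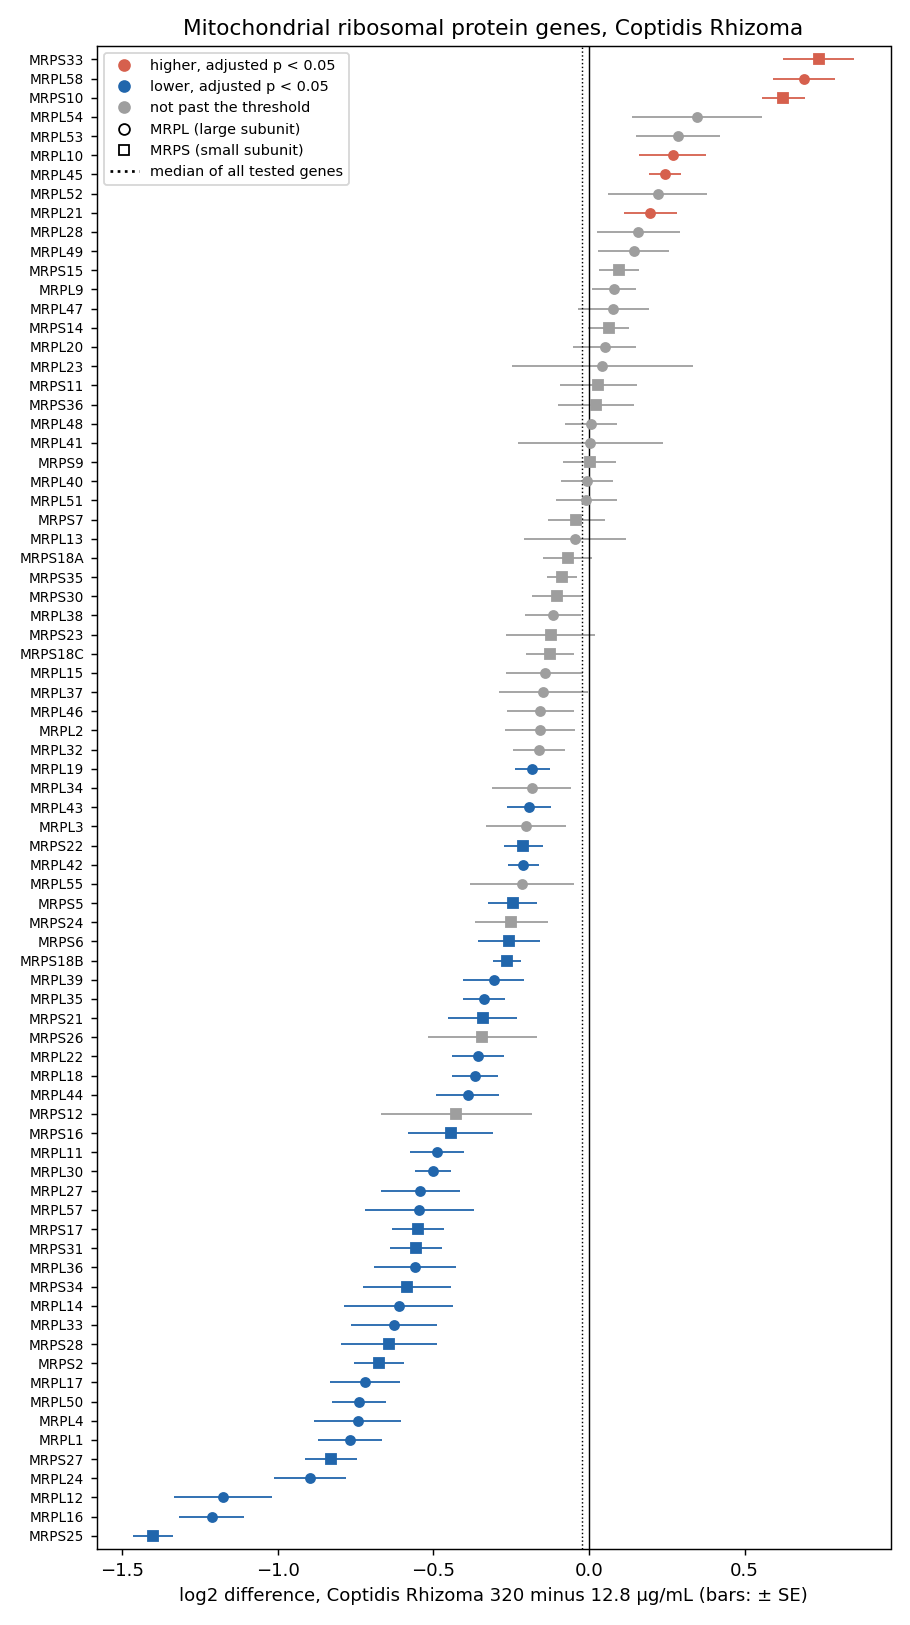
Log2 difference between 320 and 12.8 µg/mL Coptidis Rhizoma for each of the 78 genes (points, with ± SE from the edgeR fit over all 60 libraries; 2 libraries per dose), sorted, with circles for MRPL and squares for MRPS. The values run from -1.40 (MRPS25) to 0.74 (MRPS33), with 35 genes lower and 6 higher past the threshold, and the dotted line marks the median of all tested genes at -0.02.

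The largest fall was in MRPS25, a small subunit protein without a bacterial counterpart (ENSG00000131368, minus strand, chr3:15042460-15065335 in GRCh38). It stood at 18.9 and 20.4 CPM at the high dose, 44.4 and 44.9 CPM at the medium dose and 51.95 and 51.8 CPM at the low dose. The 3 vehicle libraries had 48.8, 52.7 and 52.2 CPM, and all 53 libraries outside Coptidis other than Zizyphi medium replicate 3 lay between 46.1 and 56.2 CPM. Both high-dose libraries were thus below every library of the other extracts and vehicle, and the doses did not overlap. MRPS25 fell by 1.40 (SE 0.064) on the log2 scale from low to high dose, to 0.379 times the low-dose level (edgeR adjusted p = 8.15e-22).

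MRPL16 (ENSG00000166902, minus strand, chr11:59806135-59810872), the counterpart of bacterial L16 near the peptidyl transferase centre, had 28.5 and 28.1 CPM at the high dose. The medium dose gave 58.7 and 55.75 CPM and the low dose 68.3 and 62.9 CPM, while the other 53 libraries lay between 58.3 and 76.2 CPM. The high-dose libraries did not overlap with any other group. MRPL16 fell by 1.21 (SE 0.104) on the log2 scale (edgeR adjusted p = 3.75e-13). MRPL12 (ENSG00000262814, plus strand, chr17:81703357-81707526), the stalk protein, stood at 37.7 and 39.7 CPM at the high dose, 86.7 and 82.5 CPM at the medium dose and 89.85 and 85.0 CPM at the low dose. Its medium- and low-dose libraries overlapped, so that the fall lay between medium and high dose. MRPL12 fell by 1.18 (SE 0.157) on the log2 scale (edgeR adjusted p = 2.56e-08). These 3 genes were the only members that fell at least 2-fold in this comparison.

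MRPL24, a protein at the rim of the exit tunnel, had 20.0 and 22.5 CPM at the high dose and 39.7 and 39.4 CPM at the low dose, and fell by 0.90 on the log2 scale (SE 0.116, edgeR adjusted p = 1.47e-08). MRPS27, a small subunit protein of the pentatricopeptide repeat family, had 52.7 and 56.25 CPM at the high dose and 99.2 and 94.2 CPM at the low dose, and fell by 0.83 (SE 0.084, edgeR adjusted p = 3.51e-11). The other 53 libraries held MRPS27 between 90.95 and 103 CPM, so its high-dose values were apart from them all. The other 30 genes that fell had log2 differences from -0.77 (MRPL1) to -0.18 (MRPL19). Over the 35 genes that fell the median log2 difference was -0.54.

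The 6 genes that rose went against this direction. MRPS33 (ENSG00000090263, minus strand, chr7:141002610-141015228), a small subunit protein found only in mitochondria, had 71.2 and 72.4 CPM at the high dose, 43.7 and 46.2 CPM at the medium dose and 43.9 and 42.2 CPM at the low dose. The 53 other libraries lay between 37.1 and 54.55 CPM, below both high-dose values. MRPS33 rose by 0.74 on the log2 scale (SE 0.115, edgeR adjusted p = 6.95e-07). MRPL58 (ENSG00000167862, plus strand, chr17:75012670-75021261), a peptide release enzyme built into the large subunit that frees stalled ribosomes, had 31.75 and 32.1 CPM at the high dose and 21.3 and 18.3 CPM at the low dose. It rose by 0.69 on the log2 scale (SE 0.099, edgeR adjusted p = 1.29e-07), and its high-dose values lay above the 15.8 to 24.2 CPM of the 53 other libraries. MRPS10 (ENSG00000048544, minus strand, chr6:42206801-42217865), which has a bacterial counterpart in the head of the small subunit, had 103 CPM in both high-dose libraries, 68.6 and 71.3 CPM at the medium dose and 67.8 and 66.0 CPM at the low dose. MRPS10 rose by 0.63 on the log2 scale (SE 0.070, edgeR adjusted p = 4.51e-10), and all 53 other libraries lay below it, at 58.4 to 69.7 CPM.

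The other 3 rises were smaller. MRPL45, which links the exit tunnel to the inner membrane, had 138.9 and 141 CPM at the high dose and 119.7 and 116.7 CPM at the low dose, a log2 difference of 0.24 (SE 0.051, edgeR adjusted p = 7.41e-05). MRPL10, of the stalk base, had 46.1 and 50.95 CPM at the high dose and 42.1 and 38.4 CPM at the low dose, a log2 difference of 0.27 (SE 0.107, edgeR adjusted p = 0.0311). The MRPL10 call was lost without high-dose replicate 3 (adjusted p = 0.203) and without low-dose replicate 3 (adjusted p = 0.201), and with upper-quartile scaling (adjusted p = 0.0921). MRPL21, with a bacterial counterpart, had a log2 difference of 0.20 (SE 0.084, edgeR adjusted p = 0.0426). Its call was lost when any 1 of the 4 Coptidis libraries compared was left out (edgeR adjusted p = 0.0557 to 0.163), with upper-quartile scaling (0.154) and with no filter (0.188).

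**Figure D2:**
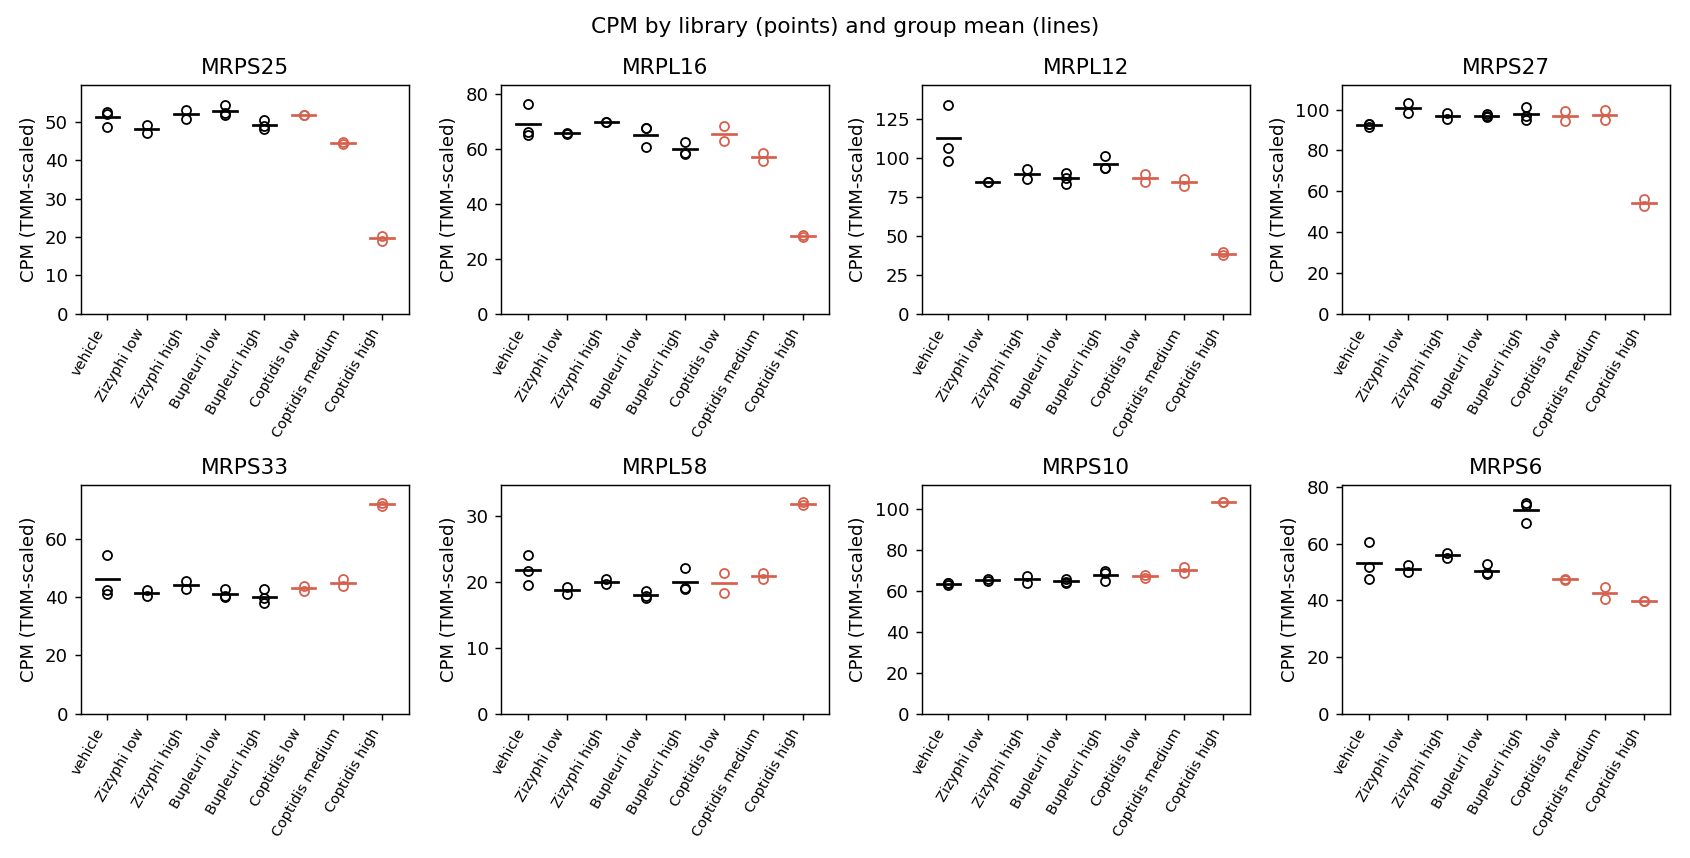
CPM by library (points; TMM-scaled, axes start at 0) and group mean (lines) for 8 genes in vehicle, low- and high-dose Zizyphi and Bupleuri, and the 3 Coptidis doses (orange). High-dose Coptidis lies below all other groups shown for MRPS25, MRPL16, MRPL12 and MRPS27 and above them for MRPS33, MRPL58 and MRPS10, whereas MRPS6 is highest with high-dose Bupleuri (67.5 to 74.6 CPM).

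Both high-dose libraries lay below both low-dose libraries for 52 of the 78 genes, where 41.6% of all tested genes did so, and above both for 13 genes, where 40.1% did so. Against the 53 libraries outside Coptidis, Zizyphi medium replicate 3 left out, the high-dose pair lay below all of them for 37 genes (24.6% of all tested genes) and above all of them for 4 genes (26.0%). With Zizyphi medium replicate 3 included, the counts were 22 below (18.1%) and 4 above (20.1%). The 4 genes above were MRPS33, MRPL58, MRPS10 and MRPL45 in both cases.

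On the TMM scale, group means fell at each dose step for 31 of the 35 genes lower at the high dose. Group means rose at each step for 5 of the 6 higher ones. The log2 differences given next are on the same scale. Most of the fall lay in the upper step: among the 35 genes the median log2 difference was -0.11 from low to medium dose and -0.39 from medium to high dose, and 34 of them fell further in the upper step. These steps share the medium-dose libraries and were not tested. The genes were picked by their difference between low and high dose, which by itself favours means in dose order. The same counts over all tested genes were not made, nor were counts by plain share for single genes. As a plain share of counts, the whole gene set took 0.4152% and 0.4096% at the medium dose and 0.4103% and 0.3974% at the low dose. By that share the set showed no fall in the lower step. The high-dose libraries, at 0.3807% and 0.3896%, lay below those of both other doses.

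By name and position, genes that fell lay in both the MRPL and the MRPS group. Of all tested genes 28.4% fell and 27.8% rose, and groups of 6 or 8 genes are small to set beside these shares. The MRPS counts include MRPS18A, MRPS30 and MRPS36, whose names mislead as given above. Of the 49 MRPL genes 22 fell and 4 rose, with a median log2 difference of -0.18, and of the 29 MRPS genes 13 fell and 2 rose, with a median of -0.25. Of the 46 genes with a bacterial counterpart 23 fell and 3 rose, with a median of -0.25, and of the 32 mitochondria-specific genes 12 fell and 3 rose, with a median of -0.12. At the rim of the exit tunnel 5 of 8 fell (MRPL24, MRPL17, MRPL44, MRPL22 and MRPL39) and MRPL45 rose. The central protuberance, a projection of the large subunit, held 1 fall of 6 (MRPL18) and 1 rise (MRPL58). Along the mRNA path and decoding site 2 of 6 fell and none rose.

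The stalk was split. MRPL11, of the stalk base, had 40.5 and 42.6 CPM at the high dose and 62.2 and 54.4 CPM at the low dose, and fell by 0.49 on the log2 scale (SE 0.088, edgeR adjusted p = 9.15e-06). MRPL12 fell as given above, while MRPL10 rose by a call that was lost in some refits, as also given above. Of the 3 MRPS18 paralogs, all with differences below 0, MRPS18B passed the test. It had 55.05 and 58.1 CPM at the high dose and 68.8 and 67.0 CPM at the low dose, and fell by 0.26 (SE 0.044, edgeR adjusted p = 2.58e-06). MRPS18A (log2 difference -0.07, SE 0.079, edgeR adjusted p = 0.484) and MRPS18C (-0.13, SE 0.077, edgeR adjusted p = 0.171) did not pass the test.

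Other genes of mitochondrial translation were counted from lists of known components, to be read beside the 28.4% of all tested genes that fell and the 27.8% that rose. Of 5 mitoribosome proteins with other names 2 fell, DAP3 by 0.71 (SE 0.044, edgeR adjusted p = 2.34e-17) and PTCD3 by 0.29 on the log2 scale. Of 25 mitoribosome assembly factors 12 fell (48.0%) and 5 rose (20.0%), with a median of -0.15. The falls included RBFA, which matures the small subunit rRNA (log2 difference -1.25, SE 0.115), and MTG1, a GTPase of large subunit assembly (-0.95, SE 0.145). Of 16 mitochondrial translation factors 6 fell (37.5%) and 3 rose (18.75%), among them the initiation factor MTIF2, which rose by 0.67 (SE 0.066, edgeR adjusted p = 1.45e-11).

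The respiratory chain subunits encoded in the nucleus had 31 falls (38.3%) and 1 rise among 81 tested, against the same 28.4% and 27.8% of all tested genes, with a median of -0.22. The cytosolic ribosomal proteins, which build the ribosome outside mitochondria, had 4 falls and 5 rises among 84 tested, with a median of 0.09. Of the 13 mRNAs that the mitoribosome translates 6 fell (46.2%) and none rose. Their share of all counts was 2.22% and 2.10% in the high-dose libraries, 3.19% and 2.94% at the medium dose and 4.97% and 4.46% at the low dose. Vehicle libraries held 6.77% to 7.95%. The mitochondrial rRNAs took 1.64% and 1.57% of counts at the high dose, 6.45% and 6.27% at the medium dose and 10.5% and 9.79% at the low dose, against 1.07% to 1.15% in vehicle. Their share was thus above vehicle at each dose and moved the opposite way to dose. MT-RNR1 fell by 2.93 on the log2 scale from low to high dose (SE 0.243, edgeR adjusted p = 1.49e-13) and MT-RNR2 by 2.76 (SE 0.311, edgeR adjusted p = 5.12e-10). A high rRNA share was not particular to Coptidis. The single Banhasasim-tang libraries held 10.2% at the high, 2.07% at the medium and 1.11% at the low dose. Zizyphi medium replicate 3 held 2.96%. Library preparation selected mRNA, and the part of that step in these shares was not tested.

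**Figure D3:**
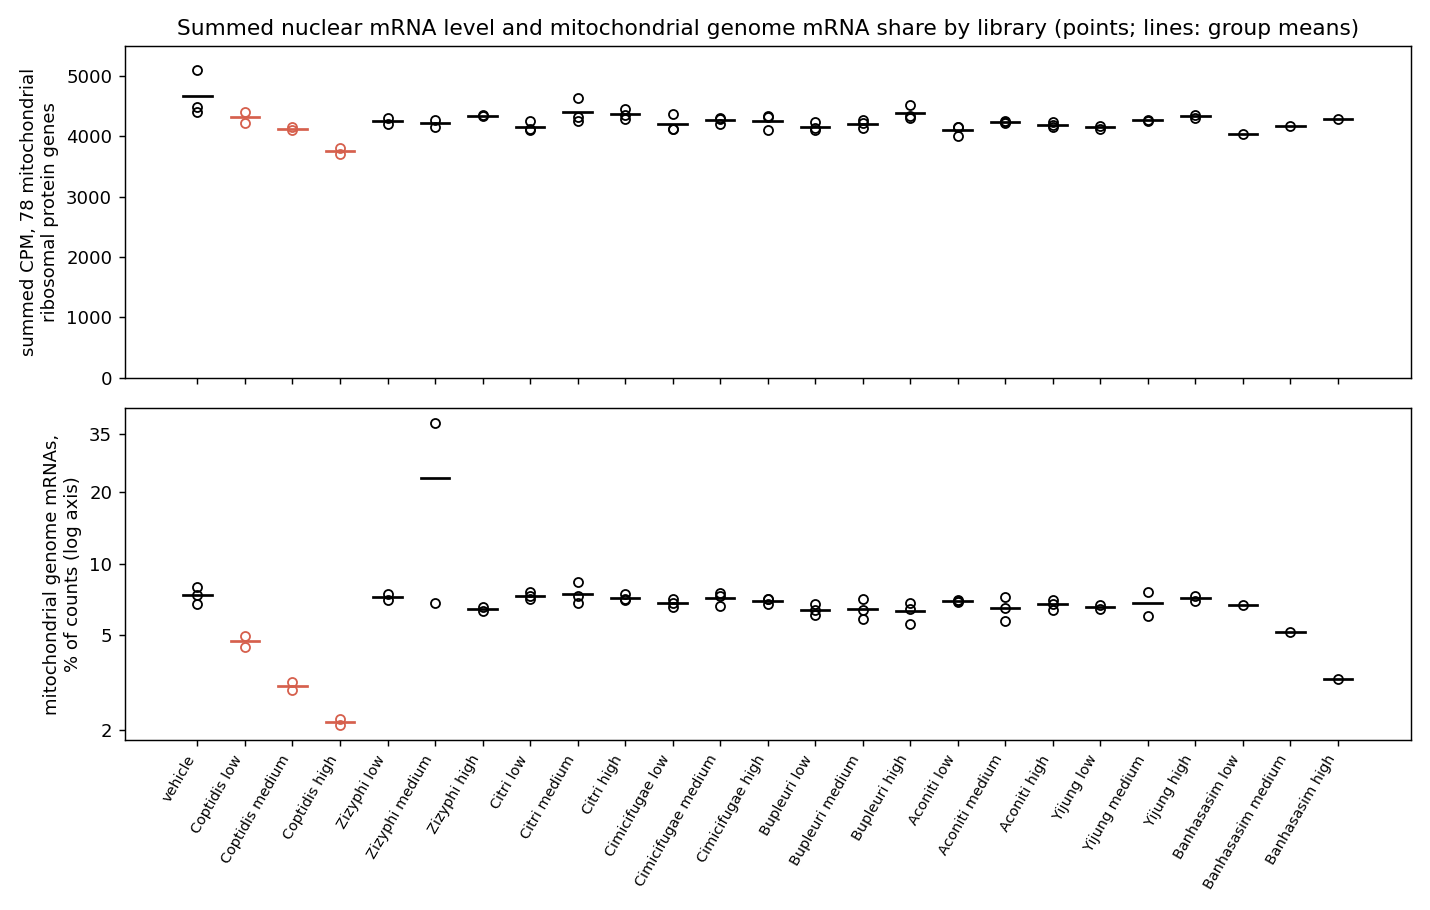
Summed TMM-scaled CPM of the 78 genes (upper panel, axis from 0) and the share of counts on the 13 mitochondrial genome mRNAs (lower panel, log axis) in each of the 60 libraries (points) with group means (lines), Coptidis in orange. The Coptidis sums step down to 3703 and 3816 CPM at the high dose, and the lower panel shows the falling Coptidis shares, the falling shares of the single Banhasasim-tang libraries and the 38.8% of Zizyphi medium replicate 3.

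Promoters of some genes with large changes in opposite directions with Coptidis are printed. Each stretch is 150 bases up to the RefSeq transcription start on the coding strand (GRCh38.p14). They were not picked by rule: MRPL16, which fell more than MRPL12, and MRPS33, the largest rise, are left out. The matches printed are thus no measure of a difference by direction. MRPS25 (chr3:15065316-15065465, minus strand) and MRPL12 (chr17:81703217-81703366, plus strand) fell, and MRPS10 (chr6:42217862-42218011, minus strand) and MRPL58 (chr17:75012520-75012669, plus strand) rose. Capitals mark a match to CCGGAAG, the core that ETS family factors such as GABPA bind.
MRPS25: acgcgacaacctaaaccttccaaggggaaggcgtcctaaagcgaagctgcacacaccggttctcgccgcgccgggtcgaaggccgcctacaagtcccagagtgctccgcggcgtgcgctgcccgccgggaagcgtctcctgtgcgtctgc
MRPL12: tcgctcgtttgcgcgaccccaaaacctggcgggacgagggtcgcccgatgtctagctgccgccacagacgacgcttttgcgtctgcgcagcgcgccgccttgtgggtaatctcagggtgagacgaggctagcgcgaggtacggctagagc
MRPS10: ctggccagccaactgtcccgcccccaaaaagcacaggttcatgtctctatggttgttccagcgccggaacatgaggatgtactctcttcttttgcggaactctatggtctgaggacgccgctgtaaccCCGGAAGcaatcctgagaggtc
MRPL58: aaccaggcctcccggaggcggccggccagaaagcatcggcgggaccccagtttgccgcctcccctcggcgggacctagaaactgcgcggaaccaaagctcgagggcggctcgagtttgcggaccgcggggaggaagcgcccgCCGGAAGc
The 3 motifs known from promoters of mitochondrial genes were searched on both strands of 300-base windows, 250 before and 50 after the start, with RefSeq windows matched for 70 of the 78 genes and 15843 protein-coding genes. A gene counted if any of its windows held the motif. CCGGAAG was found for 42.9% of the 70 genes and for 16.5% of the 15843 protein-coding genes. The latter were taken whether or not they passed the filter on low counts, which all 78 genes passed. The YY1 motif was in 18.6% against 2.22%, and the NRF1 motif in 12.9% against 9.67%. Overlaps between motifs were counted for each. Among genes that fell with Coptidis and had a window, CCGGAAG was found for 11 of 33 and the YY1 motif for 5 of 33. Among genes past no threshold they were in 16 of 33 and 7 of 33. The NRF1 motif was found for 5 of 33 genes that fell and 2 of 33 genes past no threshold. Only 4 of the genes that rose had a window, of which CCGGAAG was in 3, the NRF1 motif in 2 and the YY1 motif in 1. For the printed genes, the window nearest the GENCODE start was read. Those of MRPS25 and MRPL12 held none of the 3 motifs. That of MRPS10 held CCGGAAG 22 bases before the start and the YY1 motif 10 bases after it. That of MRPL58 held CCGGAAG 8 and 193 bases before the start. A match is a string of letters and not a measured binding site.

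In the other 7 extracts the dose changed few of these genes. Between high and low dose none of the 78 passed the edgeR threshold with Zizyphi (0.0% of all tested genes did), Citri (0.144%), Cimicifugae (0.874%, of which 0.437% higher and 0.437% lower), Aconiti (2.71%, 0.474% higher and 2.23% lower) or Yijung-tang (0.206%, 0.0874% higher and 0.119% lower). At an unadjusted p under 0.05, edgeR gave 0 of the 78 genes for Zizyphi (2.07% of all tested genes), 10 or 12.8% for Citri (6.55%), 1 for Cimicifugae (7.43%), 4 for Aconiti (11.0%) and 2 for Yijung-tang (6.05%), and DESeq2's adjusted test gave 0 in each. The log2 differences of the 78 genes in these 5 extracts lay between -0.18 and 0.24, and their medians between 0.01 and 0.08. Banhasasim-tang had 1 library per dose, so its differences have no replicate check, and its edgeR p-values assume that these libraries vary like those of the other groups. On that assumption MRPL58 was the only one of the 78 genes past the threshold (1.73% of all tested genes passed, 1.04% higher). It was at 23.5 CPM at the high, 18.1 CPM at the medium and 16.4 CPM at the low dose, a log2 difference of 0.52 (edgeR adjusted p = 0.0488), and with DESeq2 size factors, upper-quartile scaling or no filter it did not pass (adjusted p = 0.0537 to 0.124), nor did any of the 78 genes with library totals alone.

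**Figure D4:**
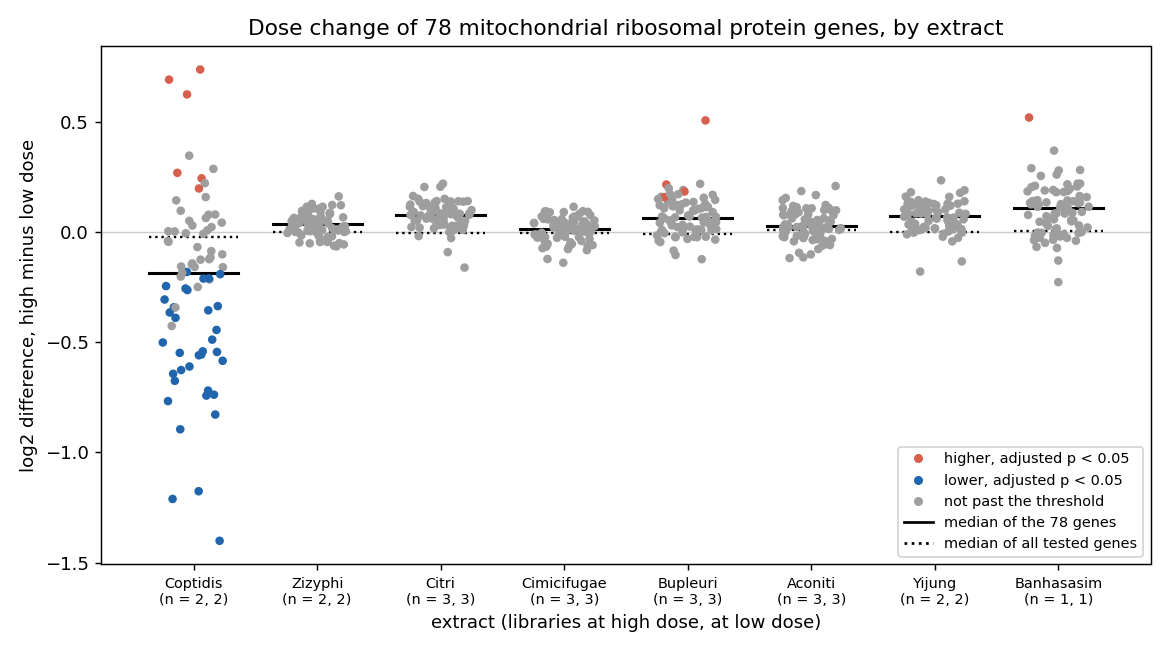
Log2 difference between high and low dose for the 78 genes (points) in each extract, with the median of the 78 genes (solid line) and of all tested genes (dotted line); numbers of libraries are under each name. Coptidis spreads from -1.40 to 0.74, whereas the other extracts stay between -0.23 (Banhasasim-tang) and 0.52, with MRPS6 of Bupleuri (0.51) and MRPL58 of Banhasasim-tang (0.52) the highest points outside Coptidis.

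With Bupleuri Radix 4 of 78 genes rose and none fell, while 6.34% of all tested genes rose and 6.59% fell. With library totals alone, upper-quartile scaling or no filter, 1 gene rose in each case. MRPS6, with a bacterial counterpart in the platform of the small subunit, had 74.6, 67.5 and 73.6 CPM at the high dose, 49.1, 48.6 and 51.7 CPM at the medium dose and 49.6, 49.2 and 52.9 CPM at the low dose. The 3 high-dose libraries lay above all others of this extract, and the medium and low doses overlapped. MRPS6 rose by 0.51 on the log2 scale (SE 0.079, edgeR adjusted p = 5.84e-06).

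MRPL18, the counterpart of the bacterial protein that binds 5S rRNA, had 52.8, 49.7 and 57.0 CPM at the high dose of Bupleuri and 47.8, 43.6 and 48.9 CPM at the low dose, a log2 difference of 0.18 (SE 0.058, edgeR adjusted p = 0.0285). MRPL21 had 45.7, 42.5 and 48.6 CPM against 38.8, 38.8 and 40.3 CPM, a difference of 0.22 (SE 0.069, edgeR adjusted p = 0.0315). MRPS22, a mitochondria-specific small subunit protein, had 44.1, 47.2 and 46.0 CPM against 40.0, 40.8 and 42.2 CPM, a difference of 0.16 (SE 0.051, edgeR adjusted p = 0.0326). High- and low-dose libraries did not overlap for any of the 3 genes. Leaving out a Bupleuri library lost 2 or 3 of the 4 calls in 4 of 6 cases, without high-dose replicate 1 or low-dose replicate 1 (2 genes remained past the threshold) and without low-dose replicate 2 or high-dose replicate 3 (1 gene). Without Zizyphi medium replicate 3, which enters through the shared spread, 9 genes rose. MRPS6 remained past the threshold in every one of these fits.

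The Coptidis and Bupleuri dose changes were compared directly with an interaction contrast, added after the data had been seen. Of the 78 genes 42 differed, 38 with the lower change under Coptidis and 4 with the higher one, while 23.0% and 22.6% of all tested genes did so. With library totals alone, which move the median of all genes by 0.18, 12 were lower and 4 higher. MRPS6 fell with Coptidis, from 47.55 and 47.3 CPM at the low to 39.7 and 39.7 CPM at the high dose, and rose with Bupleuri, and the changes differed by -0.76 on the log2 scale (SE 0.126, edgeR adjusted p = 3.11e-06). MRPL18 (-0.55, SE 0.093, edgeR adjusted p = 4.82e-06) and MRPS22 (-0.37, SE 0.082, edgeR adjusted p = 0.000259) likewise fell with one extract and rose with the other. MRPL21, whose calls were lost as given above, had differences above 0 with both, and the changes differed by -0.02 (SE 0.109, edgeR adjusted p = 0.916). The concentrations of the extracts differ, 320 against 310 µg/mL at the high dose.

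**Figure D5:**
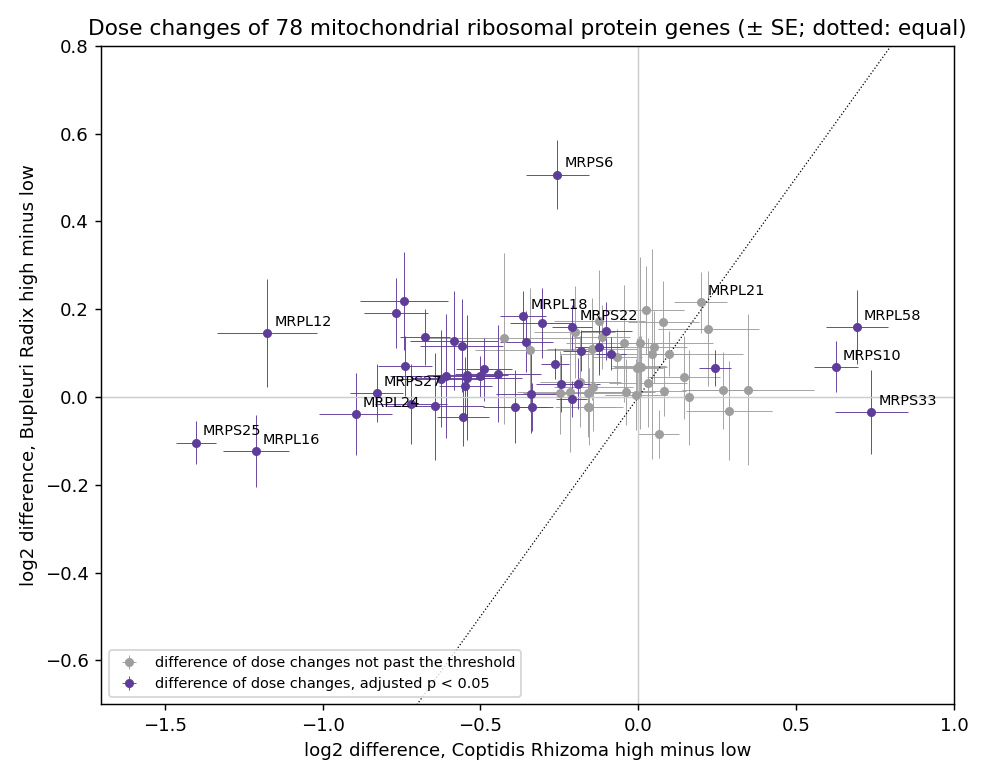
Log2 difference between high and low dose for the 78 genes with Coptidis Rhizoma (horizontal axis) and Bupleuri Radix (vertical axis), with ± SE and the line of equal change (dotted); purple marks the 42 genes whose changes differed. MRPS25, MRPL16 and MRPL12 lie far left, between -0.12 and 0.15 with Bupleuri, and MRPS6 lies high with Bupleuri and below 0 with Coptidis.

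Within library sets, high doses of different extracts were compared. Coptidis minus Zizyphi gave 37 lower and 8 higher genes (28.8% and 28.0% of all tested genes) with a median of -0.22, or 28 and 3 with library totals alone, and MRPS25 was lower by 1.41 on the log2 scale (SE 0.064). This comparison shares the high-dose Coptidis libraries with the dose comparison. Bupleuri minus Aconiti gave 6 higher genes and 1 lower (10.2% and 10.9%). MRPS6 was highest there by difference, at 67.5 to 74.6 CPM against 52.2, 52.7 and 55.0 CPM with Aconiti (log2 difference 0.43, SE 0.078, edgeR adjusted p = 5.3e-05), and MRPS25 was the gene that was lower (-0.15, SE 0.049, edgeR adjusted p = 0.0288). The median of the 78 genes in that comparison was 0.04 and turned to -0.01 with upper-quartile scaling, where 4 were higher and 2 lower, and to -0.03 with library totals, where none passed. Citri minus Cimicifugae (0.905% of all tested genes) and Banhasasim-tang minus Yijung-tang (1.57%) gave none by edgeR. At an unadjusted p under 0.05 each gave 2 of the 78 genes (6.45% and 9.1% of all tested genes), and DESeq2's adjusted test gave 0 in both.

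Against vehicle, more of the 78 genes were lower than higher past the edgeR threshold with every extract, at the high and at the low dose. At the high dose the number lower was 48 with Coptidis (32.0% of all tested genes lower), 5 with Zizyphi (2.53%), 9 with Citri (5.6%), 24 with Cimicifugae (7.7%), 15 with Bupleuri (12.7%), 20 with Aconiti (7.96%), 8 with Yijung-tang (2.98%) and 4 with Banhasasim-tang (2.67%). The numbers higher were 4, 1, 4, 3, 3, 0, 2 and 0 in the same order, with 30.9%, 4.38%, 7.61%, 10.3%, 14.3%, 9.35%, 4.66% and 4.94% of all tested genes higher. In either direction 6.9% of all tested genes passed with Zizyphi, 18.0% with Cimicifugae and 7.6% with Banhasasim-tang. At the low dose the number lower was 6 with Coptidis (2.29% lower, 3.83% higher and 6.12% in either direction), 10 with Zizyphi (2.3%), 23 with Citri (5.99%), 16 with Cimicifugae (5.58%), 23 with Bupleuri (5.99%), 27 with Aconiti (6.26%), 15 with Yijung-tang (3.34%) and 8 with Banhasasim-tang (1.19%), and at most 2 genes were higher in any of them. The shares of all tested genes higher there were 3.74% for Zizyphi, 8.14% for Citri, 7.98% for Cimicifugae, 8.49% for Bupleuri, 8.22% for Aconiti, 4.27% for Yijung-tang and 2.03% for Banhasasim-tang. Medians of the 78 genes were -0.32 for high-dose Coptidis and between -0.16 and -0.09 for the other high doses, and between -0.25 and -0.13 at the low doses. All these comparisons share the 3 vehicle libraries and their set. With library totals alone the numbers lower and higher at the high dose were 34 and 4 for Coptidis, 0 and 1 for Zizyphi, 1 and 1 for Citri, 2 and 1 for Cimicifugae, 3 and 4 for Bupleuri, 5 and 1 for Aconiti, 0 and 1 for Yijung-tang and 0 and 0 for Banhasasim-tang. At the low dose they were 5 and 0 for Coptidis, 0 and 0 for Zizyphi, 7 and 1 for Citri, 4 and 1 for Cimicifugae, 6 and 1 for Bupleuri, 5 and 1 for Aconiti, 2 and 1 for Yijung-tang and 1 and 1 for Banhasasim-tang.

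These vehicle counts hung on single libraries. Shares of all tested genes were not set beside the refits below, so whether a move is particular to the 78 genes is not shown. The summed level of the 78 genes was 5109 CPM in vehicle replicate 1 and 4492 and 4411 CPM in the other 2. Without vehicle replicate 1 the number of genes past the threshold, 4 to 27 at the high dose of the 7 extracts other than Coptidis, came to 0 to 7. For the 8 low doses it went from 7 to 28 down to 0 to 7. Without vehicle replicate 3 the ranges were 8 to 33 and 13 to 37, and without Zizyphi medium replicate 3 they were 21 to 41 and 25 to 50. For high-dose Coptidis against vehicle, with 52 genes past the threshold, leaving out any 1 vehicle or high-dose Coptidis library or Zizyphi medium replicate 3 gave 44 to 61.

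All 3 vehicle libraries lay above the 56 extract libraries other than Zizyphi medium replicate 3 for 4 of the 78 genes, MRPS18A, MRPS18B, MRPS34 and MRPS7, as they did for 1.46% of all tested genes. MRPS18A had 54.6, 45.0 and 45.3 CPM in vehicle and 33.75 to 42.4 CPM in the extract libraries, with log2 differences from -0.41 to -0.26 at the high doses (edgeR adjusted p = 5.72e-06 to 0.019) and from -0.32 to -0.17 without vehicle replicate 1 (adjusted p = 0.000175 to 0.221). MRPS34, a mitochondria-specific small subunit protein, had 113, 91.1 and 84.5 CPM in vehicle against 48.2 to 79.5 CPM. MRPL54 had 24.3, 16.7 and 15.2 CPM in vehicle and overlapped with the 9.75 to 15.9 CPM of the extract libraries; its log2 differences at the high doses, -0.75 to -0.32, came to -0.53 to -0.10 without vehicle replicate 1, where none passed (edgeR adjusted p = 0.116 to 0.655).

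In the opposite direction, MRPL19, with a bacterial counterpart, had 49.8, 48.0 and 52.0 CPM in vehicle and 48.0 to 61.2 CPM in the extract libraries, with log2 differences from -0.01 (Coptidis) to 0.27 (Bupleuri) at the high doses. MRPS30 had 81.25, 79.6 and 83.7 CPM in vehicle and 81.6 to 105 CPM in the extract libraries, with differences from 0.02 (Coptidis) to 0.34 (Bupleuri). For both genes the ranges overlapped, and the highest difference passed the test with Bupleuri (edgeR adjusted p = 1.27e-05 for MRPL19 and 0.000131 for MRPS30).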

How the data were processed

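The authors deposited expected counts per gene, 1 column per library. FastQC 0.11.9, Trim Galore 0.6.5, STAR 2.7.3a, RSEM 1.3.3 and GRCh38 are named per the submitters' processing notes. Which annotation was counted is not given in the sources. Expected counts split reads between near-identical genes by estimate, so paralogs and processed copies add uncertainty. The deposited table holds 270 columns, of which the 60 that match the samples were used and 210 were not. Counts were rounded to whole numbers, which changed a library total by at most 0.000222%.

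Genes reaching 0.5 CPM in 3 or more libraries were fitted with edgeR 4.0.16 (R 4.3.3, TMM scaling, quasi-likelihood test) in 1 model of 25 groups over all 60 libraries, with 35 residual degrees of freedom. P-values were adjusted by Benjamini-Hochberg over 16022 genes within each of 29 comparisons, with a threshold of 0.05. CPM values are TMM-scaled. DESeq2 1.42.0, other scalings, no filter, a replicate block, the compared groups fitted alone and leaving out libraries were alternatives. On simulated counts for the Coptidis dose comparison with 15694 genes, the model called 83.6% of the genes given a 1.5-fold change, and 97% at 2-fold. The simulation changed few genes and gave every gene the same spread, whereas 56.2% of tested genes passed the threshold in the data. These rates therefore do not give the power in the data. Gene positions and lengths are from GENCODE 29 on GRCh38.

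The genes and gene lists were chosen with earlier results of these data known. Genes were named by rule: the 5 largest falls and 5 largest rises past the threshold for each dose comparison, the 3 largest in each direction elsewhere, the 3 highest and 3 lowest per length in vehicle, the genes called with 1 sign in the most extracts, the stalk and MRPS18 genes, and up to 3 per direction from other lists. MRPL1, MRPL17, MRPL22, MRPL44 and the neighbour pairs in the closing section fall outside the rule and were named after their values were seen.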

Additional observations from a re-analysis of the deposited data

Results flagged for a closer look

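The changes from low to high dose differed between Coptidis Rhizoma and Bupleuri Radix for 42 of the 78 genes, while 45.5% of all tested genes differed. This is by edgeR's test of the difference between the changes, which was added after the data had been seen. With library totals alone, 12 of the 78 genes had the lower change under Coptidis and 4 the higher one. The difference, Coptidis minus Bupleuri on the log2 scale, was -1.32 for MRPL12, -1.30 for MRPS25, -1.09 for MRPL16, -0.86 for MRPL24, -0.84 for MRPS27, -0.76 for MRPS6, -0.55 for MRPL18 and -0.37 for MRPS22. It was 0.77 for MRPS33, 0.56 for MRPS10, 0.53 for MRPL58 and 0.18 for MRPL45. MRPS6, MRPL18 and MRPS22 fell past the threshold with Coptidis and rose past it with Bupleuri. The extracts lie in different library sets, and each change was measured within its own set.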

How the results depend on the processing

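Of 314 values of 25 results on named genes, 291 kept their direction and side of the threshold, 23 lost the call and 0 reversed; of 350 recomputed counts of genes past the threshold, 252 stayed within 1.5 times. The cause of the other moves was not tested. With the compared groups fitted alone, high minus low gave 17 genes for Bupleuri (4 in the fit of all groups), 2 for Aconiti (0) and 1 for Yijung-tang (0). Against vehicle that setting gave, at the high dose, 0 for Zizyphi, 6 for Citri, 15 for Cimicifugae, 0 for Yijung-tang and 0 for Banhasasim-tang, and at the low dose 0 for Coptidis, 0 for Zizyphi, 9 for Cimicifugae, 16 for Bupleuri, 0 for Yijung-tang and 0 for Banhasasim-tang. It gave 23 for Bupleuri minus Aconiti and 5 for Banhasasim-tang minus Yijung-tang. With no filter the counts were 1 for the Bupleuri and 0 for the Banhasasim-tang dose change, 12 for high-dose Zizyphi and, at low doses, 11 for Coptidis, 16 for Zizyphi, 27 for Cimicifugae and 18 for Banhasasim-tang against vehicle, and 2 for Bupleuri minus Aconiti. DESeq2's test gave 11 for high-dose Zizyphi, and 11 for Coptidis, 26 for Cimicifugae and 16 for Banhasasim-tang at low doses. Upper-quartile scaling gave 1 for the Bupleuri and 0 for the Banhasasim-tang dose change, and DESeq2 size factors 0 for the latter. Leaving out a library gave ranges of 34 to 51 for the Coptidis dose change, 1 to 9 for Bupleuri, 0 to 2 for Aconiti and 32 to 51 for the difference between the Coptidis and Bupleuri changes. Against vehicle the ranges were, at high doses, 44 to 61 for Coptidis, 0 to 27 for Zizyphi, 5 to 33 for Citri, 5 to 41 for Cimicifugae, 7 to 41 for Bupleuri, 6 to 39 for Aconiti, 1 to 26 for Yijung-tang and 2 to 21 for Banhasasim-tang. At low doses they were 1 to 25, 1 to 29, 7 to 50, 6 to 42, 5 to 48, 4 to 47, 2 to 38 and 0 to 38 in the same order. High doses compared gave 37 to 52 for Coptidis minus Zizyphi and 3 to 20 for Bupleuri minus Aconiti. Banhasasim-tang libraries could not be left out, nor its doses fitted alone. With the replicate number as a block the Coptidis dose change gave 41 genes and no count moved beyond 1.5 times. Same-numbered libraries did not deviate together in every pair (correlation -0.03 for Coptidis high and low dose). For extracts with 3 libraries per dose most of these correlations lay above 0, such as 0.13 for Citri replicate 1 at high and low dose. Some lay below 0, such as -0.06 for Citri replicate 3 at high and medium dose. Scaling by library totals alone was added after seeing the data; its counts stand beside the results they move. Depth of at least 18.1 M counts left every gene at 30 counts or more.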

Other observations

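Many of these genes start head to head with another gene. Of the 78 genes 17 (21.8%) had a divergent protein-coding neighbour whose start lay within 1000 bases, beside 9.6% of 12745 tested protein-coding genes. MRPL46 and MRPS11 are each other's neighbour, 34 bases apart, and neither passed the test with Coptidis (log2 differences of -0.16 and 0.03). MRPL36 lies 34 bases from NDUFS6, a complex I subunit, and both fell between low and high dose of Coptidis, MRPL36 by 0.56 and NDUFS6 by 0.36 on the log2 scale (edgeR adjusted p = 0.00257 for NDUFS6). MRPL30 and MITD1, 21 bases apart, fell by 0.50 and 0.42. Other pairs had changes of opposite sign. MRPL50 fell by 0.74 while ZNF189, 259 bases away, rose by 0.62. MRPL21 rose by 0.20 while IGHMBP2, 7 bases away, fell by 0.42. The MRPL21 call was lost when any single Coptidis library compared was left out, as given above. These pairs were chosen after their values were seen.

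Zizyphi medium replicate 3 differed from replicate 2 of the same group by factors from 0.199 (MRPS12) to 2.71 (MRPL57), with a median of 0.805 over the 78 genes. Vehicle replicate 1 differed from vehicle replicate 3 by factors from 0.935 (MRPS25) to 1.6 (MRPL54), with a median of 1.19.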
